A study of Mus musculus with 9 samples.

Results

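The MHC class II presentation genes are 7 of the 54838 genes in the deposited expression table of mouse ovary RNA: H2-Aa, H2-Ab1, H2-Eb1, H2-DMa, H2-DMb1, Cd74 and Ciita. They were taken by gene symbol, from a list written with earlier results of these data known, and all 7 passed the filter on low values. Expression was measured by RNA sequencing of total RNA from ovaries of adult mice, 40 h after pregnant mare serum gonadotropin (PMSG), a hormone preparation that drives follicle growth. All 9 libraries share this stimulation, and no unstimulated ovary was analysed here. The DKO_TG group (3 libraries) is labelled DKO LXR TG-AMH-LXRb, a double knockout of the liver X receptors that also carries a transgene named for AMH and LXRb. The DKO group (3 libraries) is labelled DKO LXR and lacks the transgene, and the WT group (3 libraries) is labelled WT. The sources used here do not give the strain, the knockout alleles, the sequence of the transgene or the number of animals behind a library. No label says that the 3 libraries of a group come from separate mice. The p-values therefore cover only the spread between libraries, which may be technical.

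MHC class II molecules sit on the surface of antigen-presenting cells (dendritic cells, macrophages and B cells) and show peptides from engulfed material to CD4 T cells. Each molecule pairs an alpha with a beta chain. Newly made chains are held by the invariant chain, encoded by Cd74, until the exchange factor H2-DM helps load a peptide in the endosome. Transcription of these genes depends on CIITA, a coactivator that binds no DNA itself and acts through the RFX, CREB and NF-Y factors on conserved X and Y boxes of the promoters. Interferon gamma induces CIITA, and macrophages are among the most abundant leukocytes of the ovary.

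H2-Aa encodes the alpha chain and H2-Ab1 the beta chain of the mouse A molecule, and H2-Eb1 the beta chain of the E molecule. H2-DMa and H2-DMb1 encode the chains of H2-DM. On mm10 with GENCODE M21, 5 of the 7 genes lie close together on chromosome 17. They are H2-DMa at 34119541 to 34139101, H2-DMb1 at 34153072 to 34160230, H2-Ab1 at 34257689 to 34269419 and H2-Eb1 at 34305867 to 34316674, all on the plus strand, and H2-Aa at 34282744 to 34287823 on the minus strand. Ciita lies on chromosome 16 at 10480059 to 10528418 on the plus strand, and Cd74 on another chromosome. Of the exonic 50-base stretches of H2-DMb1, 22.65% also occur in its paralog H2-DMb2, so the split of reads between these genes is uncertain. Exons of Ciita overlap the opposite-strand gene Dexi over 329 bases, and exons of H2-DMa overlap Brd2 over 360 bases. Whether reads were counted by strand is not stated, so both genes are uncertain to that extent.

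RefSeq promoter windows (GRCm38.p6, 250 bases before to 50 bases after an annotated start) were examined for 4 of the 7 genes. H2-Ab1 and Ciita had no window, and Cd74 was not examined. The 3 windows shown here hold the X and Y box letters through which the CIITA complex works. Capitals mark the X core CNNGNAAC and, downstream of it on the same strand, the Y core TGATTGG. All 3 are written 5′ to 3′ on the strand of the gene, from chr17:34287774-34288073 (minus strand) for H2-Aa, chr17:34305617-34305916 (plus strand) for H2-Eb1 and chr17:34152941-34153240 (plus strand) for H2-DMb1.
H2-Aa: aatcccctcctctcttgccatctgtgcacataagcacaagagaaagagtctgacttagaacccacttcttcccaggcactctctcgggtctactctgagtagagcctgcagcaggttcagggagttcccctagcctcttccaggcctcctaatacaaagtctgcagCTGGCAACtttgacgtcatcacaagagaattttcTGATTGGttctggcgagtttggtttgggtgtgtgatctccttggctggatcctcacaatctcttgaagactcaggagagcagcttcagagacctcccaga
H2-Eb1: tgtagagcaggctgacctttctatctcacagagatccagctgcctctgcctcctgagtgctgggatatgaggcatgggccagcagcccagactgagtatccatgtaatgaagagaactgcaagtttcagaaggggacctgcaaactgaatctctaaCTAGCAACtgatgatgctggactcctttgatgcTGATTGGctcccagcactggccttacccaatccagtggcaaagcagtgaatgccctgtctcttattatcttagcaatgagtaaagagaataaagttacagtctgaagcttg
H2-DMb1: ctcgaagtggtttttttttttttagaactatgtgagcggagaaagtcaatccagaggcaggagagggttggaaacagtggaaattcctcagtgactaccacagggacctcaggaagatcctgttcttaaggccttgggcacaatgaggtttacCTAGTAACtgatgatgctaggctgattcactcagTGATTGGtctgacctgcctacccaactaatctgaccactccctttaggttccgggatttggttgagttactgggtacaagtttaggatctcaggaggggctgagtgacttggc
The X core starts 84 bases before the annotated start in H2-Aa, 94 in H2-Eb1 and 97 in H2-DMb1, and 26, 25 and 26 bases separate it from the Y core in H2-Aa, H2-Eb1 and H2-DMb1. A search of both strands of 32851 RefSeq promoter windows found the X core in 39.095% and the Y core in 7.817%. The X core followed by the Y core after 15 to 35 bases was found in 0.158% of them (52 windows). Among these were H2-Oa and H2-Ob, the chains of H2-DO, which modulates H2-DM. The window of H2-DMb2 held 1 X core and 1 Y core but not this pair. The windows of H2-DMa, the fourth member examined, hold the X core and no Y core. They are chr17:34122582-34122881 and chr17:34125268-34125567 (plus strand), inside the annotated gene. Any other start of H2-DMa was not examined, so these windows do not show that the gene lacks a Y box. The motif letters and the spacing were chosen after these windows had been read, so the matches describe the sequences and are not a test.

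In the deposited libraries the recovered depth was 39.4 to 58.3 M reads, and markers of granulosa cells, the supporting cells of the follicle, summed to 1538 to 1857 RPKM in DKO_TG, 1026 to 2036 RPKM in DKO and 1692 to 2279 RPKM in WT. The deleted receptor genes were low where the labels say so. Nr1h3, which encodes LXRa, averaged 0.670 ± 0.145 RPKM in DKO_TG, 0.807 ± 0.273 RPKM in DKO and 4.68 ± 0.701 RPKM in WT (SD, n = 3 each). The LXRb gene Nr1h2 was at 5.14 to 5.96 RPKM in DKO_TG, 5.79 to 7.79 RPKM in DKO and 15.2 to 22.5 RPKM in WT. It was thus not raised in the libraries labelled with the LXRb transgene. Whether reads of the transgene count towards Nr1h2 is not known, so every direction given for DKO_TG rests on its label. The WT libraries stood apart in the nuclear RNA Malat1, which averaged 261 ± 16.4 RPKM in DKO_TG, 199 ± 19.1 RPKM in DKO and 7.38 ± 5.03 RPKM in WT (SD, n = 3 each). The library size behind the RPKM values was 1.05 to 1.13 times the recovered total in the DKO_TG and DKO libraries and 0.811 to 0.937 times in the WT libraries. Genotype and these differences between libraries cannot be told apart in any comparison with WT.

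The 7 genes had one order of level in all 9 libraries. RPKM is scaled to gene length, so levels of different genes can be set side by side, although the lengths the authors used are not given. Cd74 was the highest, followed by H2-Eb1, H2-Aa, H2-Ab1, H2-DMb1, H2-DMa and Ciita. The alpha and beta chain genes had similar levels, the H2-DM genes were much lower, and Ciita was near or below 1 RPKM. The ranges over 3 libraries overlapped between H2-Eb1 and H2-Aa, between H2-Aa and H2-Ab1 and between H2-DMb1 and H2-DMa in every genotype, and between Cd74 and H2-Eb1 in DKO. H2-Ab1 and H2-DMb1, and H2-DMa and Ciita, were apart in every genotype.

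H2-Eb1 was at 57.5, 44.0 and 57.5 RPKM in DKO_TG replicates 1 to 3, 141, 143 and 93.1 RPKM in DKO, and 72.6, 62.6 and 105 RPKM in WT. H2-Aa was at 50.5, 36.8 and 48.3 RPKM in DKO_TG, 112, 120 and 80.4 RPKM in DKO, and 66.2, 50.3 and 95.7 RPKM in WT. H2-Ab1 was at 36.6, 27.8 and 39.6 RPKM in DKO_TG, 91.1, 97.3 and 58.8 RPKM in DKO, and 48.8, 39.4 and 63.9 RPKM in WT. For each of these chain genes, every DKO_TG library was below every DKO library, while WT replicate 3 lay among the DKO values. Cd74, the invariant chain gene on chromosome 18 at 60803848 to 60812652 (plus strand), was at 82.4, 61.0 and 86.5 RPKM in DKO_TG, 204, 215 and 137 RPKM in DKO, and 127, 120 and 200 RPKM in WT. Here the DKO_TG libraries were below all others, and DKO and WT overlapped.

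H2-DMb1 was at 6.90, 4.59 and 6.14 RPKM in DKO_TG, 12.4, 16.5 and 11.3 RPKM in DKO, and 6.35, 5.96 and 9.13 RPKM in WT. H2-DMa was at 5.01, 3.54 and 4.53 RPKM in DKO_TG, 9.78, 12.1 and 7.64 RPKM in DKO, and 5.06, 4.20 and 8.36 RPKM in WT. For H2-DMb1 the DKO libraries were above all others, and for H2-DMa WT replicate 3 was above DKO replicate 3. Ciita, the coactivator gene, was at 0.727, 0.543 and 0.722 RPKM in DKO_TG, 1.56, 1.28 and 0.962 RPKM in DKO, and 0.309, 0.260 and 0.525 RPKM in WT. It was the only one of the 7 whose 3 groups were all separate, with DKO highest and WT lowest. For Ciita the recovered reads numbered 215 to 343 in each DKO_TG, 600 to 761 in each DKO and 111 to 242 in each WT library. Every other member had at least 241 reads in each library.

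**Figure D1:**
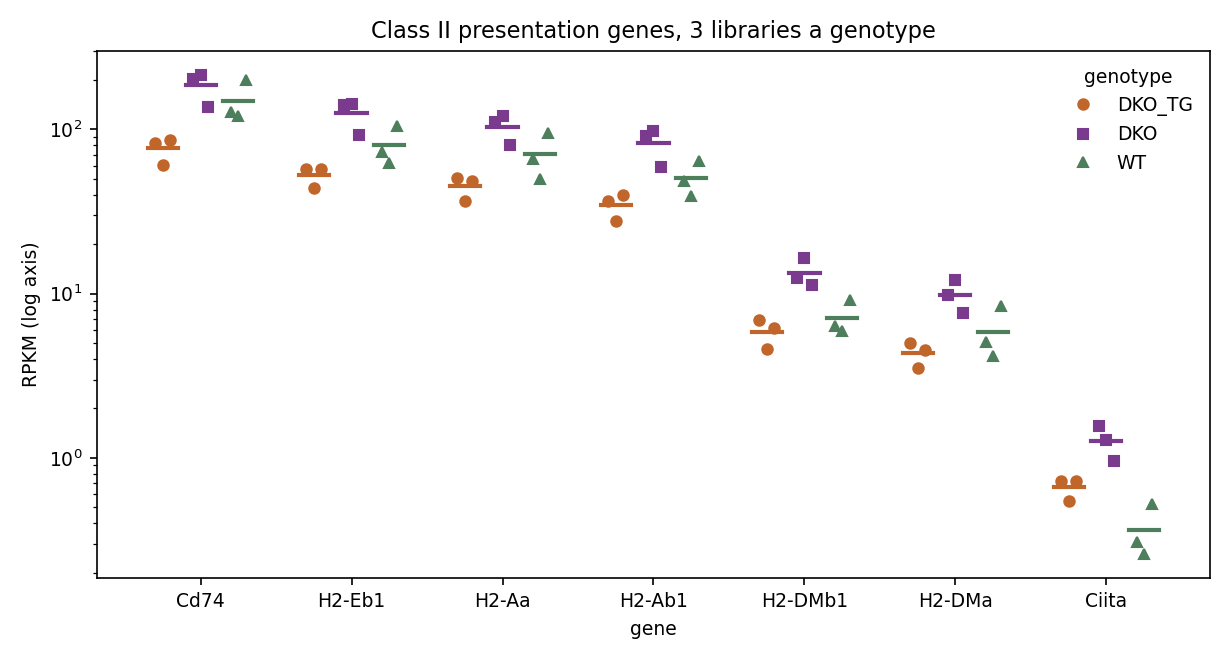
RPKM of the 7 genes on a log axis, with 1 point per library (3 each in DKO_TG, DKO and WT) and a bar at the group mean. Cd74 is highest and Ciita lowest in every group, and for all 7 genes the DKO points lie above the DKO_TG points.

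Within a genotype the members moved together between libraries. All 7 were lowest in replicate 2 of DKO_TG, replicate 3 of DKO and replicate 2 of WT. All 7 were highest in replicate 3 of WT, and 6 of 7 in replicate 2 of DKO, where Ciita was highest in replicate 1 instead. In the units of log2(RPKM + 0.5), the root-mean-square distance of a gene from the mean profile of the 6 members above 1 RPKM was 0.0447 for H2-Eb1, 0.0568 for H2-Aa, 0.0679 for H2-Ab1 and 0.0974 for H2-DMa. The distance was 0.155 for H2-DMb1 and 0.178 for Cd74. Ciita, which did not enter the mean profile, was farther away at 0.424.

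**Figure D2:**
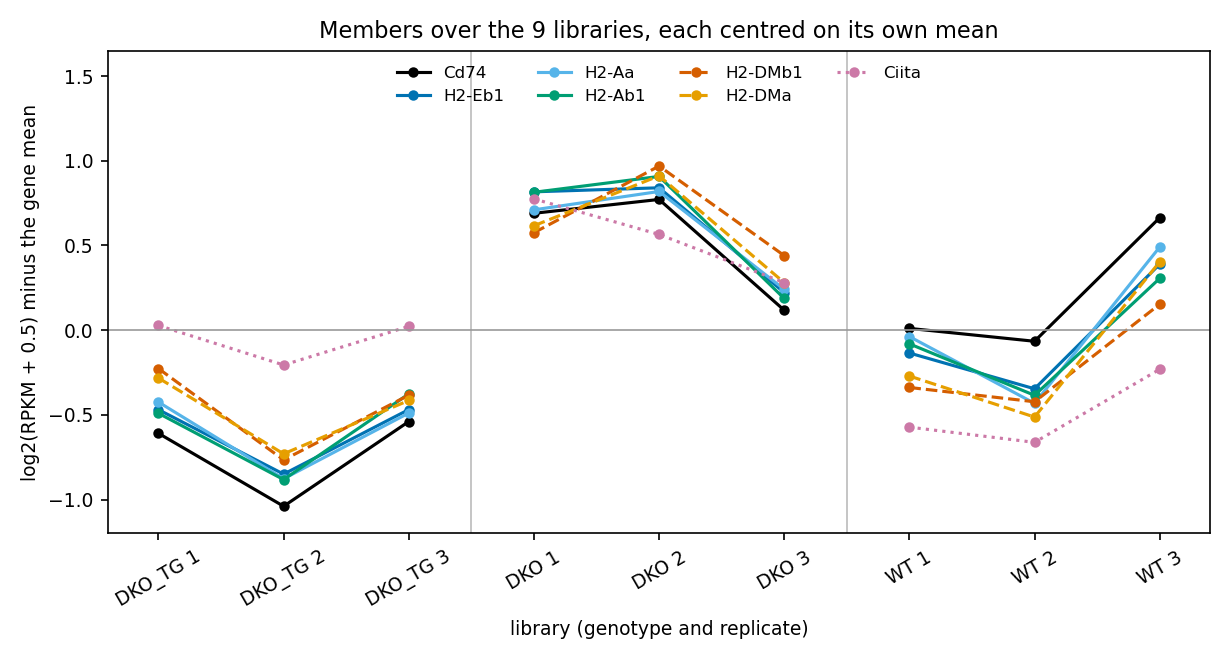
Level of each gene in each library, as log2(RPKM + 0.5) minus the mean of that gene over the 9 libraries; lines join the libraries of a genotype to guide the eye, and replicate numbers carry no order. The chain, Cd74 and H2-DM genes run close together, while Ciita lies above them in DKO_TG and below them in WT.

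In DKO ovaries 5 of the 7 genes rose against WT: Ciita, H2-DMb1, H2-DMa, H2-Ab1 and H2-Eb1. Differences were tested with limma on log2(RPKM + 0.5) over all 18889 genes that passed the filter, and a gene was called at a Benjamini-Hochberg adjusted p under 0.05. No member fell, at an adjusted or an unadjusted p under 0.05 in limma or by limma-voom on recovered reads. Of all tested genes 30.8% were called higher in this comparison and 25.9% lower, so a call against WT was common. Ciita averaged 1.27 ± 0.299 RPKM in DKO and 0.365 ± 0.141 RPKM in WT (SD, n = 3 each). Its log2 change was 1.03 ± 0.17 (SE), or 2.04-fold, with an adjusted p of 0.00109 in limma. H2-DMb1 averaged 13.4 ± 2.73 RPKM in DKO and 7.15 ± 1.73 RPKM in WT (SD, n = 3 each), a log2 change of 0.86 ± 0.20 (SE, adjusted p = 0.00687 in limma). Ciita and H2-DMb1 were also the 2 members with no overlap between the DKO and WT libraries, a property of 32.6% of tested genes in this direction and of 28.6% in the other.

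H2-DMa had a log2 change of 0.73, H2-Ab1 of 0.69 and H2-Eb1 of 0.66, with adjusted p-values of 0.0326, 0.0353 and 0.0371 in limma. H2-Aa, at 104 ± 21.0 RPKM in DKO and 70.7 ± 23.1 RPKM in WT (SD, n = 3 each), was not called (log2 change 0.58, 95% interval 0.02 to 1.15, adjusted p = 0.0713 in limma). Cd74, at 185 ± 42.4 RPKM in DKO and 149 ± 44.2 RPKM in WT (SD, n = 3 each), was not called either (log2 change 0.32, 95% interval -0.24 to 0.89, adjusted p = 0.286 in limma). The median log2 change was 0.69 over the 7 members and 0.02 over all tested genes. Ciita and H2-DMb1 were called under all 19 alternative settings, and all 7 log2 changes stayed above 0 under each. Of these settings, dropping the filter, the replicate block and a fit of 6 libraries could not change a log2 change. The count of 5 became 2 when any one of WT replicate 1, WT replicate 2, DKO replicate 1 or DKO replicate 2 was left out, and also without the filter on low values or in a fit of the 6 DKO and WT libraries alone; it was 3 with median-of-ratios scaling or without DKO_TG replicate 1. In the other direction, TPM scaling called all 7 members, H2-Aa (adjusted p = 0.00390; 0.00390 to 0.227 over the alternatives) and Cd74 (adjusted p = 0.0177; 0.0177 to 0.582) among them in limma, and quantile normalization, plain total scaling and limma-voom called 6 each.

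**Figure D3:**
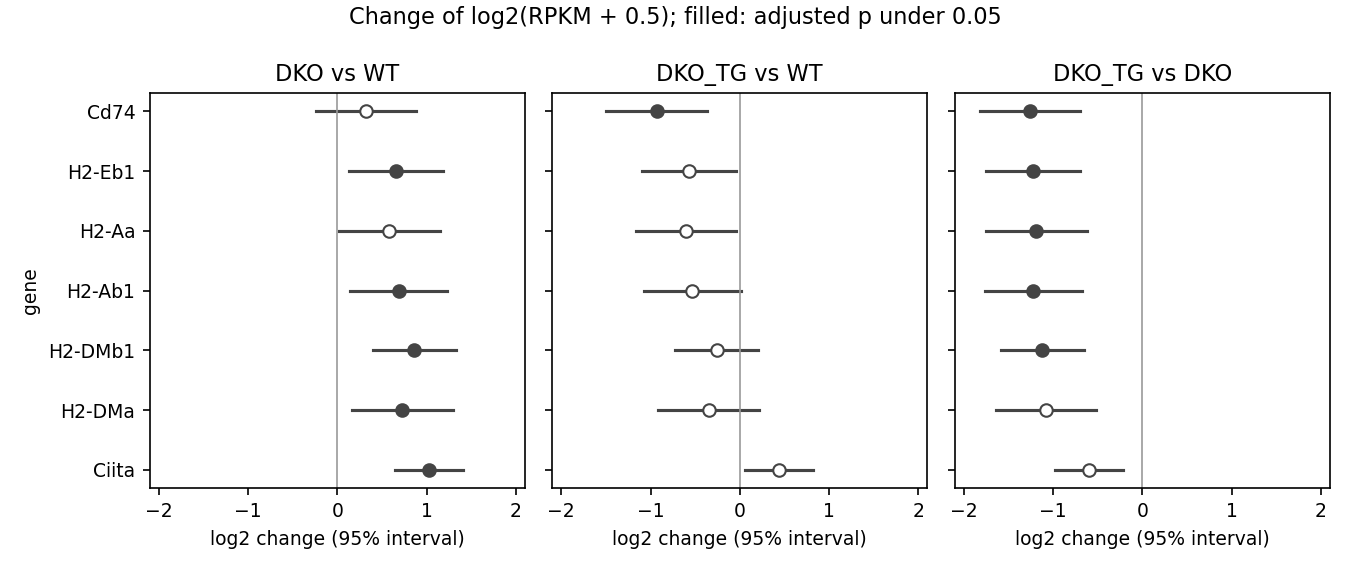
Log2 change of each gene in 3 comparisons, with 95% intervals from limma; filled points have an adjusted p under 0.05. The changes in DKO against WT lie between 0.32 and 1.03, those in DKO_TG against WT between -0.93 and 0.44, and those in DKO_TG against DKO between -1.26 and -0.59.

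In DKO_TG ovaries 5 of the 7 genes fell against DKO: Cd74, H2-Eb1, H2-Ab1, H2-Aa and H2-DMb1. Only 1.73% of all tested genes were called lower in this comparison, and 0.498% higher. Cd74 averaged 76.6 ± 13.7 RPKM in DKO_TG and 185 ± 42.4 RPKM in DKO (SD, n = 3 each), a log2 change of -1.26 ± 0.25 (SE, adjusted p = 0.0431 in limma). H2-Eb1 averaged 53.0 ± 7.77 RPKM in DKO_TG and 126 ± 28.3 RPKM in DKO (SD, n = 3 each), a log2 change of -1.22 ± 0.23 (SE, adjusted p = 0.0371 in limma). The log2 changes of H2-Ab1, H2-Aa and H2-DMb1 were -1.22, -1.19 and -1.12, with adjusted p-values of 0.0423, 0.0491 and 0.0339 in limma. The 5 genes were thus at 0.42 to 0.46 of their DKO values on the scale of log2(RPKM + 0.5). Most leukocyte and macrophage markers also fell in this comparison, and 5 markers of red blood cells had lower values without being called; their part in the class II result was not tested.

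H2-DMa averaged 4.36 ± 0.749 RPKM in DKO_TG and 9.84 ± 2.23 RPKM in DKO (SD, n = 3 each) and was not called (log2 change -1.08, adjusted p = 0.0663 in limma). Ciita averaged 0.664 ± 0.104 RPKM in DKO_TG and 1.27 ± 0.299 RPKM in DKO (SD, n = 3 each), and it was not called (log2 change -0.59, 95% interval -0.97 to -0.21, adjusted p = 0.123 in limma). For all 7 genes every DKO_TG library lay below every DKO library, which held for 12.1% of tested genes in this direction, and all 7 had an unadjusted p under 0.05. The median log2 change was -1.19 over the 7 members and 0.03 over all tested genes. The adjusted p-values of the 5 called genes lay close under the threshold, and the count depended on the libraries and genes that entered the fit. It was 0 without the filter on low values, in a fit of the 6 DKO_TG and DKO libraries alone, and when any one of DKO_TG replicate 1, 2 or 3, DKO replicate 2 or WT replicate 2 was left out; it was 1 without WT replicate 1 or DKO replicate 1 and 3 without DKO replicate 3. The log2 changes themselves stayed below 0 for all 7 genes under all 19 alternative settings, between -1.46 and -0.44. As no libraries overlapped between these groups, leaving out 1 library could not have reversed these directions.

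Between DKO_TG and WT only Cd74 was called. It averaged 76.6 ± 13.7 RPKM in DKO_TG and 149 ± 44.2 RPKM in WT (SD, n = 3 each), a log2 change of -0.93 ± 0.25 (SE, adjusted p = 0.0128 in limma). Of all tested genes 22.3% were called lower and 29.1% higher in this comparison. H2-Aa, H2-Eb1 and H2-Ab1 had log2 changes of -0.60, -0.57 and -0.53, with adjusted p-values of 0.0692, 0.0684 and 0.0933 in limma. H2-DMa and H2-DMb1 had log2 changes of -0.35 and -0.26 (adjusted p = 0.267 and 0.322 in limma), with 95% intervals of -0.91 to 0.21 and -0.72 to 0.21; with TPM scaling these 2 changes were 0.14 and 0.24.

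Ciita went the other way, at 0.664 ± 0.104 RPKM in DKO_TG and 0.365 ± 0.141 RPKM in WT (SD, n = 3 each), with a log2 change of 0.44 and an adjusted p of 0.0555 in limma. No member was called higher, although Ciita had an unadjusted p under 0.05 and was called by limma-voom on recovered reads (adjusted p = 0.0110; 0.0110 to 0.644 over the alternatives). With quantile normalization its log2 change was -0.10. Every DKO_TG library lay above every WT library for Ciita, and below every WT library for Cd74 and H2-Eb1; 35.6% of tested genes had no overlap in the upward and 30.2% in the downward direction. The call of Cd74 was lost with TPM, quantile and plain total scaling (adjusted p = 0.217, 0.290 and 0.0509 in limma; 0.00845 to 0.290 over the alternatives), and 3 members were called lower without WT replicate 2 or with median-of-ratios scaling. The 3 comparisons share their groups, so they are not separate evidence for one another.

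The ratios of members within a library do not depend on the factor by which a library was scaled. Among the chain genes these ratios were nearly the same in the 3 genotypes. H2-Aa over H2-Ab1 was 1.31 ± 0.0829 in DKO_TG, 1.28 ± 0.0792 in DKO and 1.38 ± 0.112 in WT, and H2-Eb1 over H2-Ab1 was 1.54 ± 0.0745 in DKO_TG, 1.53 ± 0.0564 in DKO and 1.57 ± 0.0759 in WT (SD, n = 3 each). H2-DMa over H2-DMb1 was 0.745 ± 0.0233 in DKO_TG, 0.734 ± 0.0545 in DKO and 0.805 ± 0.106 in WT (SD, n = 3 each). The libraries of the 3 genotypes overlapped in all of these.

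Ciita and Cd74 differed from the chain genes. Per 100 RPKM of H2-Aa, H2-Ab1 and H2-Eb1 together, Ciita was at 0.503, 0.501 and 0.497 RPKM in DKO_TG, 0.454, 0.355 and 0.414 RPKM in DKO, and 0.165, 0.171 and 0.199 RPKM in WT. No libraries of different genotypes overlapped in this ratio. Cd74 over the sum of the chain genes was 0.570, 0.562 and 0.595 in DKO_TG, 0.592, 0.597 and 0.588 in DKO, and 0.676, 0.790 and 0.756 in WT. The WT libraries were above all others, and DKO_TG and DKO overlapped. The H2-DM genes per 100 RPKM of the chain genes were at 7.69 ± 0.484 in DKO_TG, 7.50 ± 0.910 in DKO and 6.46 ± 0.326 in WT (SD, n = 3 each), and DKO overlapped both other groups. A two-sided exact permutation test of 3 against 3 libraries cannot give a p below 0.1. That value was reached by the Ciita ratio in all 3 comparisons, and after adjustment over 45 such tests of ratios it was 0.25.

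**Figure D4:**
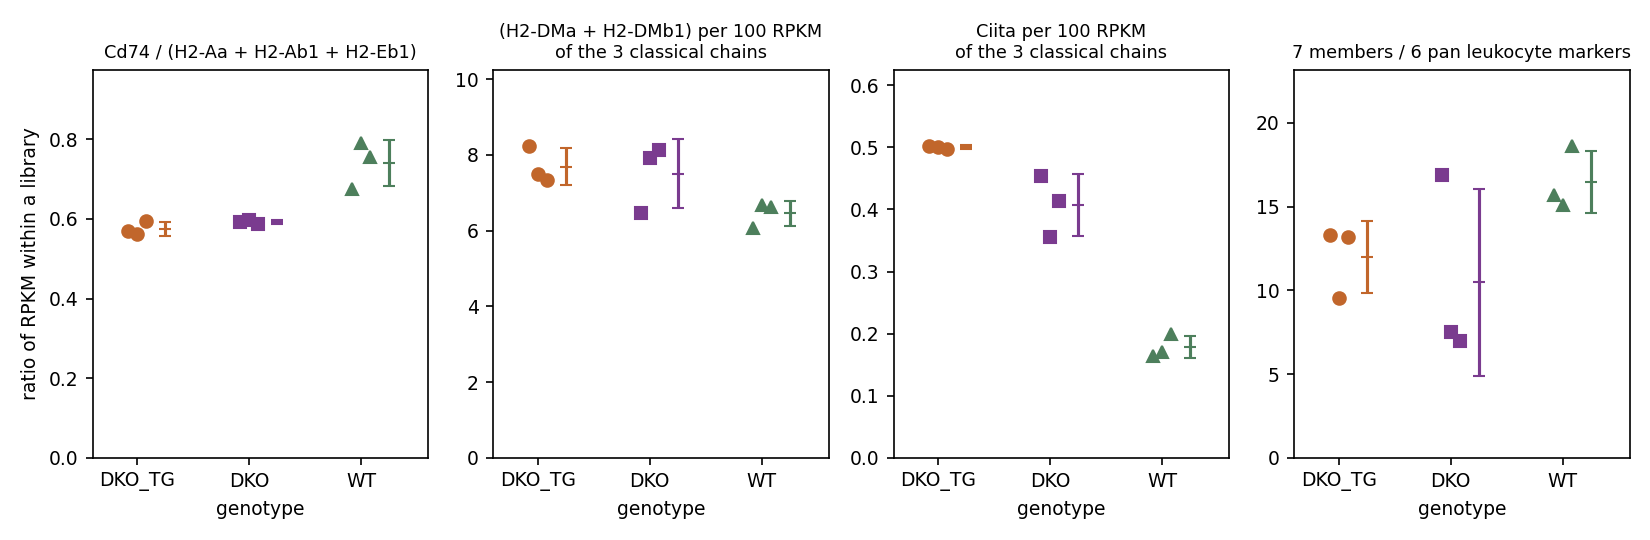
Ratios of RPKM within a library in DKO_TG, DKO and WT, with 1 point per library and the mean ± SD of 3 libraries beside them. The Ciita ratio is 0.497 to 0.503 in DKO_TG, 0.355 to 0.454 in DKO and 0.165 to 0.199 in WT, and the ratio to pan leukocyte markers has 1 high DKO library.

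The other class II genes were weakly expressed. Of the 5 listed, H2-DMb2 and H2-Oa passed the filter. H2-DMb2, a second beta chain of H2-DM that shares sequence with H2-DMb1, rose by 0.95 on the log2 scale in DKO against WT (adjusted p = 0.00269 in limma) and fell by 0.90 in DKO_TG against DKO (adjusted p = 0.0470 in limma). It averaged 2.02 ± 0.240 RPKM in DKO_TG, 4.27 ± 1.00 RPKM in DKO and 1.96 ± 0.462 RPKM in WT (SD, n = 3 each). H2-Oa averaged 0.401 to 0.552 RPKM in the 3 groups and was not called in any comparison. H2-Ob was at 0.283 to 0.376 RPKM in DKO_TG, 0.315 to 0.706 RPKM in DKO and 0.0277 to 0.223 RPKM in WT. The E alpha chain gene, annotated as the pseudogene H2-Ea-ps, had 0 reads in all 9 libraries, which allows up to 0.0443 to 0.0698 RPKM (3 reads of a library, counting error only), while H2-Eb1 was among the highest members.

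Of the 7 DNA-bound partners of CIITA (RFX, NF-Y and CREB subunits), 4 rose in DKO against WT and 4 in DKO_TG against WT. None was called in DKO_TG against DKO by limma (1 at an unadjusted p under 0.05, none by limma-voom). Of all tested genes 30.8% were called higher in DKO and 29.1% in DKO_TG against WT. In DKO_TG against DKO only 0.498% were called higher and 1.73% lower, so few calls could be looked for there. Rfx5, which encodes the DNA-binding subunit of RFX, averaged 3.91 ± 0.110 RPKM in DKO_TG, 3.62 ± 0.515 RPKM in DKO and 1.74 ± 0.113 RPKM in WT (SD, n = 3 each). Its log2 change was 0.87 in DKO and 0.97 in DKO_TG against WT (adjusted p = 0.000213 and 0.000126 in limma), and 0.10 in DKO_TG against DKO (adjusted p = 0.678 in limma). The NF-Y subunit genes Nfyb and Nfya also rose against WT, by 0.28 and 0.31 in DKO on the log2 scale. The median log2 change of the list was 0.27 in DKO and 0.27 in DKO_TG against WT, against 0.02 and 0.03 over all tested genes. Over the alternative settings the counts ranged from 1 to 7 in DKO and from 1 to 6 in DKO_TG against WT.

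Of 7 tested genes of the interferon gamma input to Ciita, 4 rose and none fell in DKO against WT (2 to 5 higher and 0 to 1 lower over the alternatives), where 30.8% of all tested genes were called higher. In DKO_TG against WT 2 rose and 1 fell (1 to 5 and 0 to 1), where 29.1% of all genes were called higher and 22.3% lower. Irf1, a transcription factor gene induced by interferon gamma that acts on Ciita, averaged 9.86 ± 0.890 RPKM in DKO_TG, 14.2 ± 0.988 RPKM in DKO and 7.35 ± 1.32 RPKM in WT (SD, n = 3 each). It rose against WT, by 0.92 in DKO (adjusted p = 0.000494 in limma) and by 0.41 in DKO_TG (adjusted p = 0.0261 in limma) on the log2 scale. In DKO_TG against DKO its log2 change was -0.51 with an adjusted p of 0.0893 in limma. The kinase gene Jak2 and the receptor gene Ifngr1 rose by 0.42 and 0.26 on the log2 scale in DKO against WT. Ifng itself was at 0.0155 to 0.0558 RPKM in DKO_TG, 0.0472 to 0.0754 RPKM in DKO and 0 RPKM in each WT library. These values are near the floor, and Ifng did not pass the filter and was not tested. No gene of this list was called in DKO_TG against DKO by limma or limma-voom, and 2 had an unadjusted p under 0.05. Limma called only 0.498% of all tested genes higher and 1.73% lower there, so few calls could be looked for.

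Among the genes that cut antigens and the invariant chain or act on class II turnover, calls went in both directions. In DKO against WT 1 of 10 rose and 4 fell, with a median log2 change of -0.20; over the alternative settings, scalings included, 1 to 5 were called higher and 0 to 5 lower, with 4 and 2 by limma-voom. The gene that rose, March1, encodes a ubiquitin ligase that removes class II molecules from the cell surface; it averaged 0.341 ± 0.0408 RPKM in DKO_TG, 1.13 ± 0.356 RPKM in DKO and 0.227 ± 0.0162 RPKM in WT (SD, n = 3 each). March1 was also the 1 gene of this list that fell in DKO_TG against DKO (log2 change -0.93, adjusted p = 0.0311 in limma), while 3 of the 10 were lower at an unadjusted p under 0.05. Ctsl, a lysosomal protease gene, and Ifi30, which encodes the lysosomal thiol reductase GILT, fell in DKO against WT by 0.91 and 0.81 on the log2 scale, and in DKO_TG against WT by 0.61 and 0.86. In DKO_TG against WT 1 of the 10 rose and 5 fell. The shares over all tested genes were 30.8% higher and 25.9% lower in DKO against WT. They were 29.1% higher and 22.3% lower in DKO_TG against WT, and 1.73% lower in DKO_TG against DKO. Ctss, the protease gene for the last step of invariant chain removal, was at 28.5 to 40.8 RPKM in DKO_TG, 39.1 to 118 RPKM in DKO and 25.1 to 47.0 RPKM in WT and was not called in any comparison; its log2 change was 0.89 in DKO against WT and -0.91 in DKO_TG against DKO, both with an unadjusted p under 0.05.

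Of 4 tested genes of costimulation, 3 rose in DKO and 3 in DKO_TG against WT, and none was called in DKO_TG against DKO by limma or limma-voom (1 at an unadjusted p under 0.05). Cd274, which encodes PD-L1, averaged 0.859 ± 0.0331 RPKM in DKO_TG, 1.10 ± 0.150 RPKM in DKO and 0.352 ± 0.0239 RPKM in WT, and Icosl, the ligand gene of ICOS, 4.87 ± 0.427 RPKM in DKO_TG, 6.30 ± 1.90 RPKM in DKO and 2.65 ± 0.448 RPKM in WT (SD, n = 3 each). Cd86, a ligand gene of CD28, rose by 0.49 on the log2 scale in DKO against WT. In the class I pathway, which presents peptides from inside the cell, 3 of 13 genes rose and 3 fell in DKO against WT (2 to 10 and 1 to 3 over the alternative settings), and 1 rose and 6 fell in DKO_TG against WT (1 to 2 and 0 to 7). The shares over all tested genes were 30.8% higher and 25.9% lower in DKO against WT, and 29.1% higher and 22.3% lower in DKO_TG against WT. Nlrc5, the relative of Ciita that activates class I genes, averaged 1.62 ± 0.535 RPKM in DKO_TG, 2.37 ± 0.158 RPKM in DKO and 0.340 ± 0.170 RPKM in WT (SD, n = 3 each). It rose by 1.79 in DKO and 1.33 in DKO_TG against WT on the log2 scale (adjusted p = 0.000172 and 0.000932 in limma). Calr and Pdia3, chaperone genes of peptide loading, fell by 1.06 and 0.66 on the log2 scale in DKO against WT. None of the 13 was called in DKO_TG against DKO by limma, but 9 were lower at an unadjusted p under 0.05 and 3 were called lower by limma-voom. In that comparison limma called 0.498% of all tested genes higher and 1.73% lower. The sum of the 7 class II members over H2-K1 and H2-D1, the classical class I chain genes, was 1.08, 1.11 and 1.40 in DKO_TG, 1.78, 1.67 and 1.52 in DKO, and 1.43, 1.53 and 2.42 in WT; the DKO_TG libraries were below all others.

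Most markers of leukocytes and macrophages were called in the same direction as the class II genes in DKO against WT and in DKO_TG against DKO. In bulk tissue, fewer cells of a type and less RNA per cell cannot be told apart. Of 6 pan leukocyte markers, 5 rose in DKO against WT and 5 fell in DKO_TG against DKO. Of 11 tested macrophage markers 9 rose and 9 fell in these comparisons. Of all tested genes 30.8% were called higher in DKO against WT and 1.73% lower in DKO_TG against DKO. Over the alternative settings the counts in DKO_TG against DKO ranged from 0 to 6 for pan leukocyte and from 0 to 9 for macrophage markers. In DKO_TG against WT 1 pan leukocyte marker rose and 1 fell, and 1 macrophage marker rose and 4 fell. The shares over all tested genes there were 29.1% higher and 22.3% lower. Ptprc, which encodes CD45, the surface phosphatase of all leukocytes, was at 0.961, 0.813 and 0.906 RPKM in DKO_TG, 1.97, 4.56 and 3.48 RPKM in DKO, and 0.268, 0.280 and 0.352 RPKM in WT. It rose by 2.20 in DKO against WT (adjusted p = 8.74e-05 in limma) and by 0.80 in DKO_TG against WT (adjusted p = 0.0162 in limma), and fell by 1.40 in DKO_TG against DKO (adjusted p = 0.0210 in limma), all on the log2 scale. Adgre1, which encodes the macrophage protein F4/80, averaged 2.94 ± 0.159 RPKM in DKO_TG, 8.93 ± 3.19 RPKM in DKO and 2.83 ± 0.482 RPKM in WT (SD, n = 3 each).

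The summed pan leukocyte markers were at 18.0 to 18.7 RPKM in DKO_TG, 33.8 to 80.4 RPKM in DKO and 18.7 to 25.9 RPKM in WT. The summed macrophage markers were at 92.1 to 96.6 RPKM in DKO_TG, 188 to 372 RPKM in DKO and 126 to 164 RPKM in WT. The 7 class II genes summed to 178 to 243 RPKM in DKO_TG, 389 to 606 RPKM in DKO and 283 to 482 RPKM in WT. None of the pan leukocyte and macrophage markers was at 0 in all libraries of a group. The part of these markers in the class II differences was not tested. Within DKO the sums did not run in parallel: replicate 1 had the lowest leukocyte sums with a class II sum of 571 RPKM, near the 606 RPKM of replicate 2, and replicate 3 had the lowest class II sum. The class II sum over the pan leukocyte sum was 9.54 to 13.3 in DKO_TG, 16.9 in DKO replicate 1, at most 7.54 in DKO replicates 2 and 3, and 15.1 to 18.6 in WT. Over the macrophage sum it was 1.94 to 2.54 in DKO_TG, 1.41 to 3.04 in DKO and 2.24 to 2.93 in WT, and all 3 groups overlapped. Single markers gave other ratios. Cd74 over Ptprc was 75.0 to 95.5 in DKO_TG, 39.3 to 103 in DKO and 430 to 569 in WT, and H2-Aa over Ptprc was 45.2 to 53.3 in DKO_TG, 23.1 to 56.5 in DKO and 180 to 272 in WT. H2-Aa over Adgre1 was 12.7 to 17.2 in DKO_TG, 9.56 to 14.9 in DKO and 20.9 to 28.6 in WT. In these 3 ratios the WT libraries were above all others, and DKO_TG and DKO overlapped. Markers of other cells did not set WT apart in this way. H2-Aa over Itgax, a dendritic cell marker, was 12.7 to 46.4 in DKO_TG, 43.7 to 91.7 in DKO and 57.1 to 117 in WT. Over Cd79a, a B cell marker, it was 100 to 171 in DKO_TG, 76.6 to 186 in DKO and 92.1 to 232 in WT. DKO and WT overlapped in both.

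Red blood cell markers had their lowest values in DKO_TG. The 4 globin genes and Alas2, the heme synthesis gene of red cell precursors, summed to 198 to 285 RPKM in DKO_TG, 562 to 2409 RPKM in DKO and 361 to 1657 RPKM in WT. In DKO_TG against DKO the median log2 change of the 5 was -2.38. For each, every DKO_TG library lay below every DKO library, which held for 12.1% of tested genes in this direction. All 5 had an unadjusted p under 0.05 in limma, but none was called by limma or limma-voom. Of all tested genes limma called 1.73% lower there. The 5 genes mark the same cells, so they do not count as separate results. In DKO_TG against WT 3 of the 5 fell, where 22.3% of all tested genes were called lower. None was called in DKO against WT by limma or limma-voom or at an unadjusted p under 0.05. The red cell sum was lowest in replicate 1 within DKO and in replicate 3 within WT, whereas the class II sum was lowest in replicate 3 within DKO and highest in replicate 3 within WT. The part of blood content in the class II levels was not tested.

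**Figure D5:**
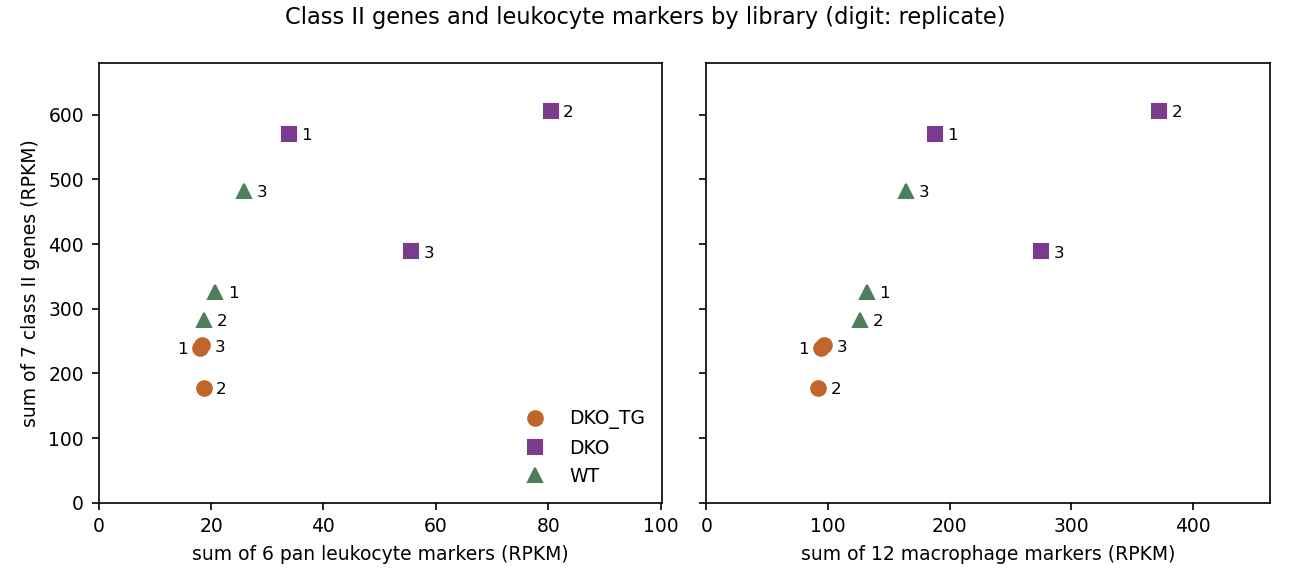
Summed RPKM of the 7 class II genes against the summed RPKM of 6 pan leukocyte markers (left) and 12 macrophage markers (right), with 1 point per library and its replicate number. The DKO libraries have the highest marker sums, DKO replicate 1 has a class II sum of 571 RPKM at a pan leukocyte sum of 33.8 RPKM, and the DKO_TG libraries lie lowest on the class II axis.

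Markers of other antigen-presenting cells summed to less than the macrophage markers. These sums depend on the genes listed and do not measure cell numbers. The macrophage markers C1qa, C1qb and C1qc averaged 44.3, 44.4 and 19.4 RPKM in WT and made up most of that sum. Single genes could be alike: in WT the dendritic cell marker Zbtb46 averaged 2.55 RPKM and the macrophage marker Adgre1 2.83 RPKM. Of 10 dendritic cell markers 6 passed the filter, 3 rose and 1 fell in DKO against WT, and 3 rose in DKO_TG against WT. The shares over all tested genes were 30.8% higher and 25.9% lower in DKO against WT. They were 29.1% higher in DKO_TG against WT and 1.73% lower in DKO_TG against DKO. Batf3, a transcription factor gene of conventional dendritic cells, averaged 0.466 ± 0.226 RPKM in DKO_TG, 2.05 ± 0.933 RPKM in DKO and 0.298 ± 0.115 RPKM in WT (SD, n = 3 each), and it was the 1 dendritic cell marker that fell in DKO_TG against DKO (log2 change -1.35, adjusted p = 0.0477 in limma). The median of the list in that comparison was -0.02: Clec9a, Zbtb46 and Itgax, further markers of dendritic cells, had log2 changes of -0.05, 0.02 and 0.15. Siglech, a marker of plasmacytoid dendritic cells, fell by 0.52 on the log2 scale in DKO against WT (adjusted p = 0.0332 in limma) and had a log2 change of 0.74 in DKO_TG against DKO (adjusted p = 0.0749 in limma). Cd209a, another dendritic cell marker of the list, did not pass the filter. It was at 0.0388 to 0.0507 RPKM in DKO_TG, 0.0193 to 0.0370 RPKM in DKO and 0.359 to 0.798 RPKM in WT. Of 6 B cell markers 3 passed the filter. Cd79b, a B cell receptor signalling gene, averaged 0.452 ± 0.141 RPKM in DKO_TG, 3.16 ± 1.67 RPKM in DKO and 0.549 ± 0.296 RPKM in WT (SD, n = 3 each), and Cd79a, its partner, 0.375 to 0.816 RPKM in group means. The dendritic cell markers summed to 10.7 to 11.6 RPKM in DKO_TG, 11.8 to 13.9 RPKM in DKO and 8.18 to 8.67 RPKM in WT, and the B cell markers to 1.46 to 2.06 RPKM in DKO_TG, 3.00 to 6.23 RPKM in DKO and 1.09 to 2.09 RPKM in WT. None of 8 T and NK cell markers passed the filter, and they summed to 1.17 to 2.00 RPKM per library.

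Of 6 lymph node and lymphatic markers, 4 passed the filter; 2 rose in DKO against WT, 1 fell in DKO_TG against DKO, and none was called in DKO_TG against WT by limma (1 higher by limma-voom, none at an unadjusted p under 0.05). Over the alternatives these counts were 2 to 4, 0 to 1 and, in DKO_TG against WT, 0 to 3 higher and 0 to 1 lower. Of all tested genes limma called 30.8% higher in DKO against WT and 1.73% lower in DKO_TG against DKO. Cxcl13, which encodes the chemokine that draws B cells into follicles, was at 0.535, 0.419 and 0.140 RPKM in DKO_TG, 3.72, 54.0 and 84.8 RPKM in DKO, and 0.247, 0.389 and 0.792 RPKM in WT. Its DKO libraries differed widely. It rose by 4.83 on the log2 scale in DKO against WT (adjusted p = 0.00266 in limma) and fell by 4.99 in DKO_TG against DKO (adjusted p = 0.0361 in limma). The DKO library with the least Cxcl13, replicate 1, had class II levels close to those of replicate 2. Ccl21a, a chemokine gene of lymphatic vessels and lymph nodes, averaged 55.1 ± 18.9 RPKM in DKO_TG, 89.2 ± 19.9 RPKM in DKO and 43.2 ± 2.84 RPKM in WT (SD, n = 3 each). Lyve1 and Prox1, markers of lymphatic endothelium, were not called in any comparison by limma, while limma-voom called all 4 tested markers higher in DKO against WT. Cr2 and Fcer2a, markers of follicular dendritic and B cells, were at or below 0.0682 RPKM in all 9 libraries. Whether attached lymphoid tissue took part in the class II levels was not tested.

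The genes whose pattern over the 9 libraries was most like that of the class II genes were Csf1r, Aif1, Igtp, Lgi3, Gpr65, Gbp2, Gpr37 and C3ar1. Likeness was the root-mean-square distance in log2(RPKM + 0.5) from the mean profile of the 6 members above 1 RPKM, over 12177 genes with a mean RPKM of at least 1, and it was 0.174 for Csf1r and 0.237 for C3ar1. H2-DMb1 and Cd74 lay at 0.155 and 0.178 from the same profile, but both entered its mean. That shortens their distances, so they are not like for like with those of other genes. Csf1r encodes the receptor for the macrophage growth factor CSF1, and was at 6.95, 5.87 and 6.70 RPKM in DKO_TG, 12.8, 13.6 and 10.2 RPKM in DKO, and 8.22, 7.96 and 11.3 RPKM in WT. Like the class II genes it was lowest in replicate 2 of DKO_TG, replicate 3 of DKO and replicate 2 of WT. Aif1 encodes a macrophage calcium-binding protein, and Igtp and Gbp2 encode interferon-induced GTPases. Igtp was at 8.01, 4.66 and 6.28 RPKM in DKO_TG, 13.4, 15.2 and 12.4 RPKM in DKO, and 7.87, 5.82 and 8.77 RPKM in WT. The 8 genes were chosen for this pattern, so their differences between genotypes are a description. With quantile normalization 2 of the 8 were among the nearest 8; with the other scalings and pseudocounts tried, 6 to 8 were.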

How the data were processed

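Total RNA of 9 ovary samples was sequenced, and the values the authors deposited are RPKM (reads per kilobase of gene, scaled to library size), 1 column per library. Per the submitters' processing notes, DESeq2 1.2.8, HTSeq 0.5.4p5, HISAT2 2.1.0 and cutadapt were used with the build mm10. The sources used here do not give the annotation, gene lengths, RPKM step or strand use. Groups and replicate numbers came from the sample titles. RPKM multiplied by exon length (GENCODE M21) gave whole reads for 97.8% of values (within 0.01 read, or 1e-06 of the value), with recovered totals of 39.4 to 58.3 M reads. For 6 of the 7 members the exon length gave no whole reads and the shortest length that did was used, so their read numbers could be low by a whole factor.

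A test of counts had been planned for a count table only. Differences were tested with limma 3.58.1 (lmFit, eBayes with trend, R 4.3.3) on log2(RPKM + 0.5), 9 libraries in 1 fit, for the 18889 genes that reached 0.5 RPKM in 3 or more libraries, and p-values were adjusted over all of them. Fold changes on this scale understate changes of low genes such as Ciita. The fit was tested on simulated data. Ratios were compared by exact permutation (scipy 1.17.1). Named genes are the 7 members, up to 3 genes a list, by smallest adjusted p in DKO against WT, together with defining markers, the 8 nearest genes and the LXR genes. Ctss, H2-Ob, Ifng, Malat1, Itgax, Siglech, Cd209a, Prox1, Cr2 and Fcer2a were named after their values were seen. Members, lists and rules were chosen with earlier results of these data known. Alternatives were pseudocounts of 0.1 and 1, no filter, TPM, median-of-ratios and quantile scaling, the replicate block, fits of 6 libraries and leaving out each library; plain total scaling and limma-voom on recovered reads were added after seeing the data.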

Additional observations from a re-analysis of the deposited data

How the results depend on the processing

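The direction of all 7 members held in 133 of 133 values over 19 alternatives in DKO against WT. It also held in 133 of 133 in DKO_TG against DKO, and in 130 of 133 in DKO_TG against WT. The exceptions were H2-DMa (0.14) and H2-DMb1 (0.24) with TPM and Ciita (-0.10) with quantile normalization. Many of these values could not have reversed. Dropping the filter, the replicate block, a fit of 6 libraries and leaving out a library outside the comparison leave each log2 change as it was. Where 2 groups do not overlap, leaving out 1 library cannot reverse a sign. The 7 genes also moved together between libraries, so they do not count as separate values. TPM moved the median log2 change of all genes to 0.52 in DKO and 0.51 in DKO_TG against WT, plain total scaling to 0.28 and 0.25, and limma-voom to 0.33 and 0.31. The 5 members called higher in DKO against WT became 2 without a filter and in the fit of 6 libraries, 3 with median-of-ratios scaling, 7 with TPM, 6 with quantile and plain total scaling and with limma-voom, and 2 to 6 when 1 library was left out. The 1 member called lower in DKO_TG against WT became 0 with TPM, quantile and plain total scaling, 3 with median-of-ratios scaling, and 1 to 3 when 1 library was left out; the count called higher was 0, and 1 with a pseudocount of 0.1, TPM, plain total scaling, limma-voom and the fit of 6 libraries, and 0 to 1 when 1 library was left out. The 5 members called lower in DKO_TG against DKO became 0 without a filter and in the fit of 6 libraries, 4 with a pseudocount of 0.1 and median-of-ratios scaling, 6 with quantile and plain total scaling, and 0 to 6 when 1 library was left out. The cause of these shifts was not tested. With the replicate number as a block, 2 members were higher in DKO against WT and 0 lower in DKO_TG against DKO. Deviations from the group means correlated at -0.31 to 0.14 over 9 pairs of libraries of the same number. Over 18 other pairs the correlations were -0.26 to 0.32. These correlations cannot exclude that the numbers pair libraries, because the group means rest on 3 libraries each, and no label states a pairing. Among listed markers, pan leukocyte genes called higher in DKO against WT numbered 5 to 6 and macrophage genes 7 to 11 over the alternatives, while those called lower in DKO_TG against DKO numbered 0 to 6 and 0 to 9. Depth limited Ciita most, at 111 to 761 reads per library. Groups of 3 libraries could not be examined for a library far from the others.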
